A study of Homo sapiens with 6 samples.

Results

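Cohesion establishment factors are the proteins that join sister chromatids behind the replication fork. This group was followed in A549, an established line from a human lung adenocarcinoma, after knockdown of the long noncoding RNA CONCR. The 10 genes were chosen by name from knowledge of the pathway, with earlier results of these data known. They are the cohesin acetyltransferases ESCO1 and ESCO2, sororin (CDCA5), the fork protection factors TIMELESS, TIPIN and CLSPN, the replisome adaptor WDHD1, and CHTF18, CHTF8 and DSCC1 of an alternative clamp loader. Each gene was represented by its brightest transcript cluster (a probe set that summarises a whole transcribed locus) among those annotated to that symbol alone. All 10 lay above the signal filter on all 6 arrays, out of 15497 genes tested.

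Both groups were A549 cells in 10% serum, lipofected 2 times at an interval of 24 h with siRNA at 40 nM, so that lipofection was common to both groups. The 3 CONCR siRNA samples received a combination of 2 siRNAs against CONCR, and the 3 control siRNA samples received a control siRNA. The series calls the knockdowns independent without naming separate cultures, so p-values here cover only sample-to-sample spread, part of which could be technical. The study asked how CONCR acts in sister chromatid cohesion.

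Cohesin is a ring-shaped protein complex that holds both copies of a chromosome together from S phase to mitosis. A ring that is loaded on DNA becomes cohesive when its SMC3 subunit is acetylated near the moving fork and sororin then protects it from release. ESCO2, the fork protection complex, WDHD1 and the CHTF18 clamp loader all work at or next to the fork, and DDX11, the helicase encoded beside CONCR, acts there too. Several of these genes are known to be transcribed mainly in proliferating cells around S phase.

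The targeted RNA and its neighbour were read first. CONCR (symbol DDX11-AS1) had log2 signals of 4.23, 4.49 and 4.64 on CONCR siRNA arrays and of 4.71, 4.71 and 4.64 on the control arrays. The groups did not overlap, with a gap of only 0.0007, and all 6 signals lay close to the filter at a log2 signal of 4. The difference of CONCR did not pass (-0.23, SE 0.10, limma adjusted p = 0.42). CONCR thus did not check the labels, and the knockdown could not be judged from these values. DDX11 differed by -0.02 (SE 0.05, limma adjusted p = 0.94). Among epithelial markers KRT8, KRT18, KRT19 and CDH1 were above the filter and EPCAM was not. Of the markers of other cell types on the array, 3 of 5 fibroblast, 1 of 5 leukocyte and 3 of 6 endothelial markers were above it. Their means with CONCR siRNA ran from 4.26 (CDH5) to 5.85 (COL1A1), where the filter was 4. The means of KRT8, KRT18, CDH1 and KRT19 were 11.30, 11.60, 8.01 and 4.82. Linear signal was summed over all markers on the array, above the filter or not, and the ranges of both groups overlapped. For fibroblasts the sums were 102.9 to 110.2 with CONCR siRNA against 102.3 to 112.0 with control siRNA. They were 62.2 to 64.8 against 60.7 to 64.5 for leukocytes, and 113.2 to 115.2 against 105.4 to 117.0 for endothelium. Arrays of the same group correlated at 0.989 to 0.993 across tested clusters, and arrays of different groups at 0.987 to 0.991.

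No cohesion establishment factor passed the test after CONCR siRNA, and the differences were small and mostly negative. TIMELESS had the most negative value, at -0.23 on the log2 scale (SE 0.05, n = 3 per group), which corresponds to 85.4% of the control signal. CDCA5 (-0.16, SE 0.07), ESCO2 (-0.15, SE 0.05) and CLSPN (-0.14, SE 0.08) followed, and CHTF18 was at 0.01 (SE 0.06). In the limma fit over 32540 transcript clusters 0 of the 10 were called, with adjusted p from 0.096 to 0.96, beside 2.61% of all 15497 genes called. An unadjusted limma p under 0.05 was found for 2 of the 10, TIMELESS and ESCO2, both lower, beside 8.84% of all genes lower at that level.

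The sign was negative for 9 of the 10 factors, beside 45.1% of all genes. Their median log2 difference was -0.12, beside a median of 0.01 over all tested transcript clusters. A difference below -0.1 was found for 6 of the 10, beside 15.8% of genes. These counts describe a list chosen with results of these data known, and no test was made of the list. In bulk RNA from a dividing culture, fewer cells in a given phase and less RNA per cell cannot be told apart.

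The precision of the arrays sets what these values can hold. The standard errors of the 10 factors ran from 0.05 to 0.08, with a median of 0.06 against 0.07 over all tested clusters. No 95% confidence interval reached below -0.35 or above 0.15, bounds that stand for 1.27-fold lower and 1.11-fold higher signal on the RMA scale. The smallest log2 difference of any called cluster in the whole table was 0.27 in size, larger than that of each of the 10 factors. Changes of the size seen here were thus not called anywhere in the table in this fit. The limit depends on the fit as well as on the 3 arrays per group. On the same arrays TIMELESS passed at the same difference with the filter raised to 6 (limma adjusted p = 0.020). It also passed with an intensity trend and robust estimation (limma adjusted p = 0.036).

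**Figure D1:**
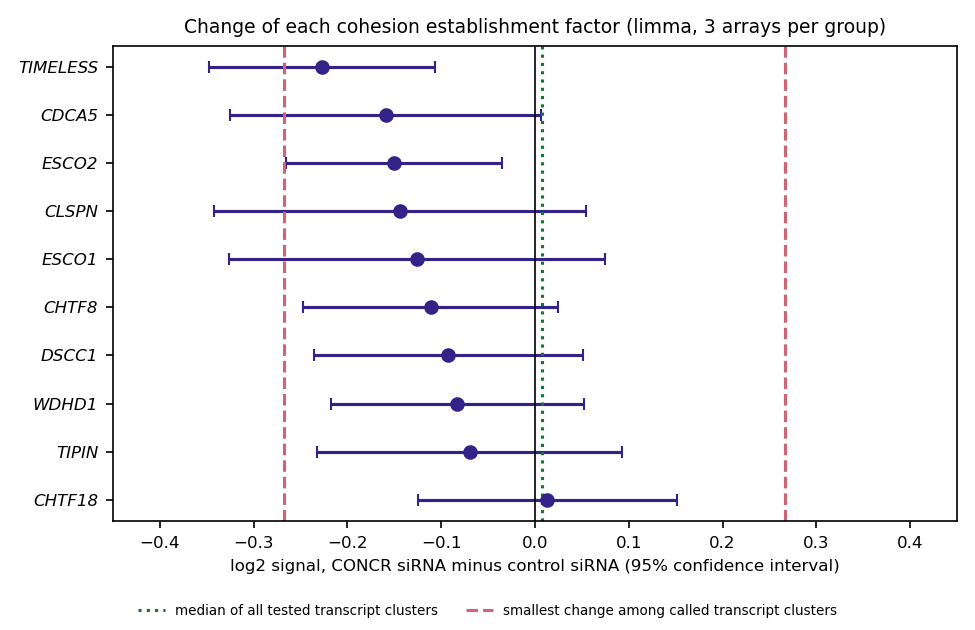
Log2 difference between CONCR siRNA and control siRNA for each factor (points) with its 95% confidence interval (bars), from limma with 3 arrays per group. The dotted line is the median of all tested transcript clusters, at 0.01, and the dashed lines mark 0.27 in either direction, the smallest difference among called clusters; every point lies between the dashed lines, and the intervals of TIMELESS and ESCO2 do not include 0.

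The acetyltransferases ESCO1 and ESCO2 both acetylate SMC3. ESCO2 acts in S phase and its loss causes Roberts syndrome, while ESCO1 is present throughout the cell cycle. ESCO2 gave log2 signals of 7.63, 7.58 and 7.61 with CONCR siRNA (replicates 1 to 3) and of 7.74, 7.79 and 7.74 with control siRNA. All 3 CONCR siRNA arrays lay below all 3 control arrays, and the replicates spanned 0.04 and 0.05 within the groups. The group means were 7.61 ± 0.02 and 7.76 ± 0.03 (SD, n = 3), and the difference of -0.15 (95% confidence interval -0.26 to -0.04) did not pass over all clusters (limma adjusted p = 0.24). The exact permutation test, two-sided, gave p = 0.1, the lowest value that 3 arrays against 3 allow.

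ESCO1 gave 5.66, 5.61 and 5.64 with CONCR siRNA and 5.58, 5.89 and 5.82 with control siRNA. The CONCR siRNA arrays were close together, and control replicate 1 lay below all of them while the other controls lay above. The means were 5.64 ± 0.03 and 5.76 ± 0.16 (SD, n = 3), and the difference of -0.13 (SE 0.08) did not pass (limma adjusted p = 0.64, exact permutation p = 0.4). The difference of ESCO2 minus that of ESCO1 was -0.02 (exact permutation p = 1), so unequal change of the 2 enzymes was not detected.

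Sororin, encoded by CDCA5, binds acetylated cohesin through PDS5 and counters the release factor WAPL. It is degraded after mitosis through the anaphase-promoting complex. CDCA5 gave log2 signals of 6.72, 6.89 and 6.72 with CONCR siRNA and of 7.00, 6.93 and 6.87 with control siRNA. The groups overlapped through CONCR siRNA replicate 2, which lay above control replicate 3. The means were 6.78 ± 0.10 and 6.94 ± 0.06 (SD, n = 3), with a difference of -0.16 (SE 0.07, limma adjusted p = 0.41; exact permutation test, p = 0.2) and a 95% confidence interval from -0.32 to 0.01. A second, dimmer CDCA5 cluster varied more, with 5.75, 5.75 and 6.17 against 6.21, 5.62 and 5.82, and its difference was 0.01 (SE 0.17, limma adjusted p = 0.99). The mean of both clusters gave a difference of -0.08 for CDCA5 in place of -0.16.

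TIMELESS and TIPIN form the heterodimer of the fork protection complex, and CLSPN (claspin) joins them and passes the signal from ATR to CHK1 when a fork stalls. TIMELESS gave log2 signals of 7.63, 7.59 and 7.62 with CONCR siRNA and of 7.85, 7.87 and 7.79 with control siRNA. The groups did not overlap, with a gap of 0.16 between the highest CONCR siRNA array and the lowest control array. The means were 7.61 ± 0.02 and 7.84 ± 0.05 (SD, n = 3), and the difference had a 95% confidence interval of -0.35 to -0.11, with limma adjusted p = 0.096 and exact permutation p = 0.1. By its unadjusted limma p TIMELESS ranked 1037th of the 32540 clusters.

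TIPIN, the partner, gave 7.51, 7.39 and 7.40 with CONCR siRNA and 7.39, 7.54 and 7.57 with control siRNA. CONCR siRNA replicate 1 lay among the control arrays, and control replicate 1 lay below all 3 CONCR siRNA arrays. The means were 7.43 ± 0.06 and 7.50 ± 0.10 (SD, n = 3), with a difference of -0.07 (SE 0.07, limma adjusted p = 0.77, exact permutation p = 0.4). The difference of TIMELESS minus that of TIPIN was -0.16, and the exact permutation p was 0.2.

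CLSPN gave 6.95, 6.77 and 6.79 with CONCR siRNA and 6.84, 7.02 and 7.08 with control siRNA. The groups overlapped through replicate 1 of each. The means were 6.84 ± 0.10 and 6.98 ± 0.12 (SD, n = 3), with a difference of -0.14 (SE 0.08, limma adjusted p = 0.57; exact permutation test, p = 0.2). Non-overlap with the lower values after CONCR siRNA was thus seen for 2 of the 10 factors, TIMELESS and ESCO2, beside 12.8% of all genes.

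**Figure D2:**
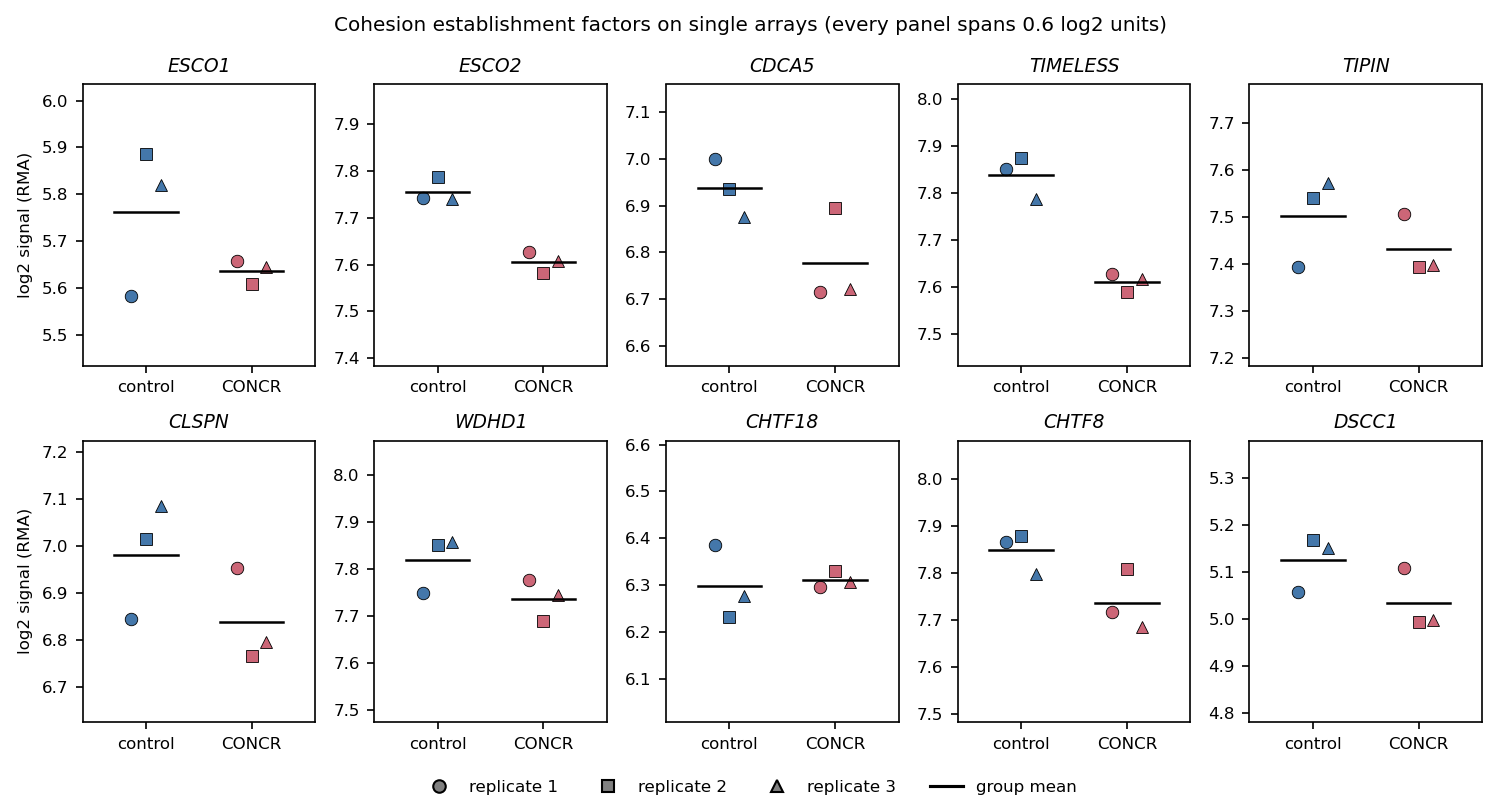
Log2 RMA signal of the 10 factors on each of the 6 arrays, with symbols for the replicate number, colours for the siRNA and lines for the group means; every panel spans the same range of log2 units and starts at a different level. ESCO2 and TIMELESS are the panels in which the CONCR siRNA arrays all lie below the control arrays.

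WDHD1 (AND-1, the human CTF4) is a trimeric adaptor that ties the replicative helicase to DNA polymerase alpha. It gave log2 signals of 7.78, 7.69 and 7.74 with CONCR siRNA and of 7.75, 7.85 and 7.86 with control siRNA. CONCR siRNA replicate 1 lay above control replicate 1, and the other arrays were ordered by group. The means were 7.74 ± 0.04 and 7.82 ± 0.06 (SD, n = 3), with a difference of -0.08 (SE 0.06, limma adjusted p = 0.65, exact permutation p = 0.2).

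CHTF18, CHTF8 and DSCC1 join the small RFC subunits to form a clamp loader that places PCNA on the leading strand and is needed for SMC3 acetylation. CHTF18 gave log2 signals of 6.30, 6.33 and 6.31 with CONCR siRNA and of 6.38, 6.23 and 6.28 with control siRNA. The CONCR siRNA arrays lay inside the range of the controls, and the difference was 0.01 (SE 0.06, limma adjusted p = 0.96; exact permutation test, p = 0.8). CHTF8 gave 7.72, 7.81 and 7.69 with CONCR siRNA and 7.87, 7.88 and 7.80 with control siRNA. The groups overlapped by 0.01 through CONCR siRNA replicate 2 and control replicate 3, and the difference was -0.11 (SE 0.06, limma adjusted p = 0.51, exact permutation p = 0.2).

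DSCC1, the dimmest cluster of the 10 yet above the filter on all arrays, gave 5.11, 4.99 and 5.00 with CONCR siRNA and 5.06, 5.17 and 5.15 with control siRNA. CONCR siRNA replicate 1 again lay above control replicate 1. The difference was -0.09 (SE 0.06, limma adjusted p = 0.63, exact permutation p = 0.2). Within each array, CHTF8 minus CHTF18 changed by -0.12 between the groups, which did not overlap in this measure (exact permutation p = 0.1). Over the 3 partner comparisons, adjusted p was 0.3 for CHTF8 with CHTF18 and for TIMELESS with TIPIN, and 1 for ESCO2 with ESCO1.

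Single arrays of both groups lay low for several factors. With each factor centred on its own mean over the 6 arrays, the mean of the 10 was -0.03, -0.06 and -0.08 on the CONCR siRNA arrays and 0.02, 0.09 and 0.07 on the control arrays. Control replicate 1 was the lowest control for 5 of the 10 (ESCO1, TIPIN, CLSPN, WDHD1 and DSCC1), beside 34.0% of all tested clusters. Control replicate 3 was the lowest for 4, beside 39.1%, and control replicate 2 for 1, beside 26.9%. Among the CONCR siRNA arrays replicate 2 was the lowest for 7 of the 10, beside 31% of clusters. Control replicate 1 lay at or below the highest CONCR siRNA array for the same 5 factors, as did control replicate 3 for 3 factors and control replicate 2 for 1.

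Without control replicate 1 the differences of ESCO1, CLSPN and TIPIN were -0.22, -0.21 and -0.12, in place of -0.13, -0.14 and -0.07. None of these passed, with limma adjusted p of 0.17, 0.28 and 0.40. TIMELESS was at -0.22 without that array, close to its value with all arrays. ESCO2, WDHD1 and DSCC1 were at -0.16, -0.12 and -0.13, in place of -0.15, -0.08 and -0.09. CDCA5, CHTF8 and CHTF18 moved the other way, to -0.13, -0.10 and 0.06, in place of -0.16, -0.11 and 0.01. The median of the 10 was -0.13, in place of -0.12. The median centred value over all tested clusters lay between -0.02 and 0.02 on the 6 arrays, and limma's array weights gave control replicate 1 the lowest weight, 0.498, against 0.976 to 1.42 for the others.

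**Figure D3:**
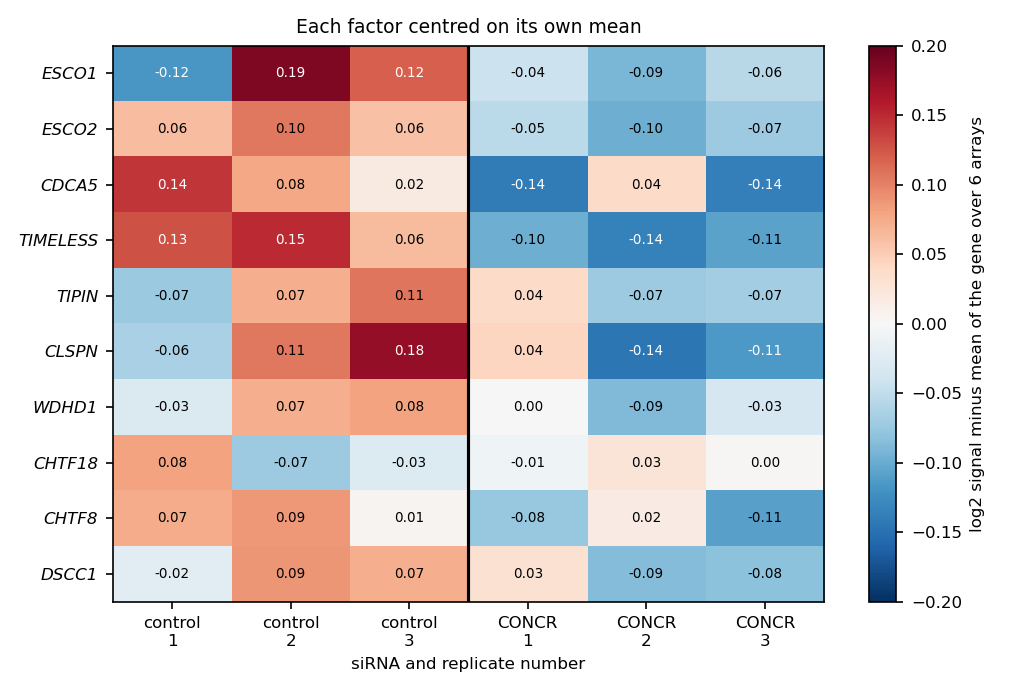
Heat map of the log2 signal of each factor minus its own mean over 6 arrays (red above, blue below), with control siRNA arrays on the left of the line and CONCR siRNA arrays on the right. CONCR siRNA replicate 3 is below the mean for 9 of the 10 factors and control replicates 2 and 3 for 1 factor each, while control replicate 1 is below it for 5.

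S-phase and mitotic genes share short promoter motifs. The bases before the transcription starts are shown for 4 of the 7 factors with windows read, TIMELESS with its partners TIPIN and CLSPN, and CDCA5. The sequences are from RefSeq in build GRCh38.p14, each the 250 bases upstream of an annotated start, and all of these genes lie on the minus strand. The windows are chr12:56449427-56449676 for TIMELESS, chr15:66356686-66356935 for the inner of 2 TIPIN starts, chr1:35769979-35770228 for CLSPN and chr11:65084041-65084290 for CDCA5. Capitals mark matches on either strand to TTTGGCGC or TTTCCCGC (E2F motifs), TTTGAA or TTCGAA (cell cycle homology region, CHR) and CCAAT (bound by NF-Y).
TIMELESS: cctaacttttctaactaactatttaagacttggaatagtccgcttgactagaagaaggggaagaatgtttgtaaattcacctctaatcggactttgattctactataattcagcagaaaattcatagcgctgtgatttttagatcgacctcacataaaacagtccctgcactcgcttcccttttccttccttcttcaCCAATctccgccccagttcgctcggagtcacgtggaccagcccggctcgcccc
TIPIN: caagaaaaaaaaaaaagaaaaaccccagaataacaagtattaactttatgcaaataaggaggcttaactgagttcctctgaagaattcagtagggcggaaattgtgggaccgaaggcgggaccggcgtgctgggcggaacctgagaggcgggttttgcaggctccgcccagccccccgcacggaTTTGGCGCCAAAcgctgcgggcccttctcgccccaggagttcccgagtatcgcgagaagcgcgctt
CLSPN: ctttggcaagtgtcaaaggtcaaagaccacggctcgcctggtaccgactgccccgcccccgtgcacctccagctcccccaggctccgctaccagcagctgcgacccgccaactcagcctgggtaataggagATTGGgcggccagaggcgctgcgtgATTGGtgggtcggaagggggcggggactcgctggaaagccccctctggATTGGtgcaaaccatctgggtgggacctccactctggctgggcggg
CDCA5: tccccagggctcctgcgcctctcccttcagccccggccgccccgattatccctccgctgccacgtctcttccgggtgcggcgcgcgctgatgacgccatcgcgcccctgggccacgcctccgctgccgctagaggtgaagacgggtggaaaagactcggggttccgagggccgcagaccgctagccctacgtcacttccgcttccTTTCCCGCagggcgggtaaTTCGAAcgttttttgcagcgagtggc

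CDCA5 held both an E2F motif, TTTCCCGC, 45 bases before its start and a CHR motif, TTCGAA, 26 bases before it. TIPIN held TTTGGCGC on both strands in overlapping positions 66 and 62 bases before its inner start, and a CCAAT motif 91 bases before its outer start. TIMELESS held a CCAAT motif at 53 bases and neither of the others, and CLSPN held 3 CCAAT motifs on the opposite strand. Of the factors not printed, CHTF18, with a difference of 0.01, held 3 CCAAT motifs. WDHD1 and CHTF8 held none of the motifs. The 7 factors had 9 windows. In at least 1 window, 2 factors held an E2F motif, 1 a CHR motif and 4 a CCAAT motif. Among all 35116 upstream windows, counted singly and not by gene, 1.93% held an E2F motif, 14.3% a CHR motif and 32.0% a CCAAT motif. No relation of the motifs to the size of the differences was tested. These matches are descriptions of letters in the window, not of binding.

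The genes that work beside these factors were read in the same fit, from lists that were also chosen with earlier results known. None of 12 genes of PCNA, its clamp loaders and lagging-strand enzymes was called, beside 2.01% of all genes called lower and 0.6% higher. All 12 had a negative sign, beside 45.1% of all genes, and the median of the 12 was -0.08. RFC1, the large subunit of the main clamp loader, was at -0.33 (SE 0.07, limma adjusted p = 0.073), the flap endonuclease FEN1 at -0.19 (SE 0.05, adjusted p = 0.18) and ATAD5, which unloads PCNA, at -0.23 (SE 0.08, adjusted p = 0.31). The small subunits RFC2, RFC3, RFC4 and RFC5, which both clamp loaders share, were at -0.08, -0.08, -0.02 and -0.03.

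Of 23 measured genes of the replicative helicase and polymerases, 1 fell, beside 2.01% of all genes called lower. This was CDC45, the helicase cofactor, with 6.10, 5.95 and 6.03 on the CONCR siRNA arrays against 6.70, 6.74 and 6.56 on the control arrays (-0.64, SE 0.07, limma adjusted p = 0.0099). The median of the 23 was -0.03, with 18 negative signs, beside 45.1% of all genes negative. POLA1, the catalytic subunit of the polymerase that WDHD1 tethers, was at -0.19 (SE 0.06, adjusted p = 0.25), and the GINS subunit GINS4 at -0.15 (adjusted p = 0.35). The other subunits of the helicase ring, MCM2 to MCM7, were between -0.03 and 0.09.

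Cohesin itself, the substrate of the pathway, gave no call among 11 measured ring, loader and release genes, beside 2.61% of all genes called. Their median was -0.02, with 6 negative signs, beside 45.1% of all genes negative. The subunit STAG1 was at -0.36 (SE 0.07, limma adjusted p = 0.051), HDAC8, which removes the acetyl group from SMC3, at -0.12 (adjusted p = 0.51) and the loader NIPBL at 0.17 (adjusted p = 0.55). SMC3, the acetylated subunit, was at -0.07 (SE 0.07) and the sororin partners PDS5A and PDS5B were at 0.02 and 0.00. Checkpoint genes that act after the fork protection complex gave no call among 10, beside the same 2.61%. Their median was -0.04. HUS1 and RAD1 of the checkpoint clamp were at 0.10 and -0.09 and RPA3 was at -0.07, with limma adjusted p of 0.59, 0.68 and 0.67, while CHEK1, the kinase that claspin serves, was at -0.06.

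Genes that degrade or regulate these factors included 1 call among 17, beside 2.61% of all genes called. Their median was -0.02. CDC27, which is part of the core of the anaphase-promoting complex, fell from 8.65, 8.75 and 8.81 on the control arrays to 7.78, 7.56 and 7.72 on the CONCR siRNA arrays (-1.05, SE 0.08, limma adjusted p = 0.0032). FZR1, the activator through which this complex recognises sororin, was at -0.02 (SE 0.06). CCNB1, cyclin B1, was at -0.19 (adjusted p = 0.15) and USP28, a deubiquitinase of claspin, at -0.14 (adjusted p = 0.33).

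Proliferation markers had negative differences like most of the cohesion establishment factors, and 2 of 12 fell, beside 2.01% of all genes called lower. CCNE1, cyclin E1, fell by 0.60 (SE 0.07, limma adjusted p = 0.010) and RRM2, of ribonucleotide reductase, fell by 0.31 (SE 0.05, adjusted p = 0.041), while E2F1 was at -0.33 (SE 0.06, adjusted p = 0.065). All 12 had a negative sign, beside 45.1% of all genes. For 10 the groups did not overlap, with CONCR siRNA lower, beside 12.8% of all genes. The median of the 12 was -0.18, and the sizes were uneven. CCNE2, TOP2A, CCNB1 and MKI67 were at -0.36, -0.26, -0.19 and -0.17. TK1, PLK1, TYMS, CCNA2 and BUB1 were at -0.07, -0.06, -0.05, -0.04 and -0.002, each with a 95% confidence interval that included 0. The summed linear signal of the 12 was 4360 to 4554 with CONCR siRNA and 4824 to 5032 with control siRNA. The part of this shift in the values of the 10 factors was not tested.

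**Figure D4:**
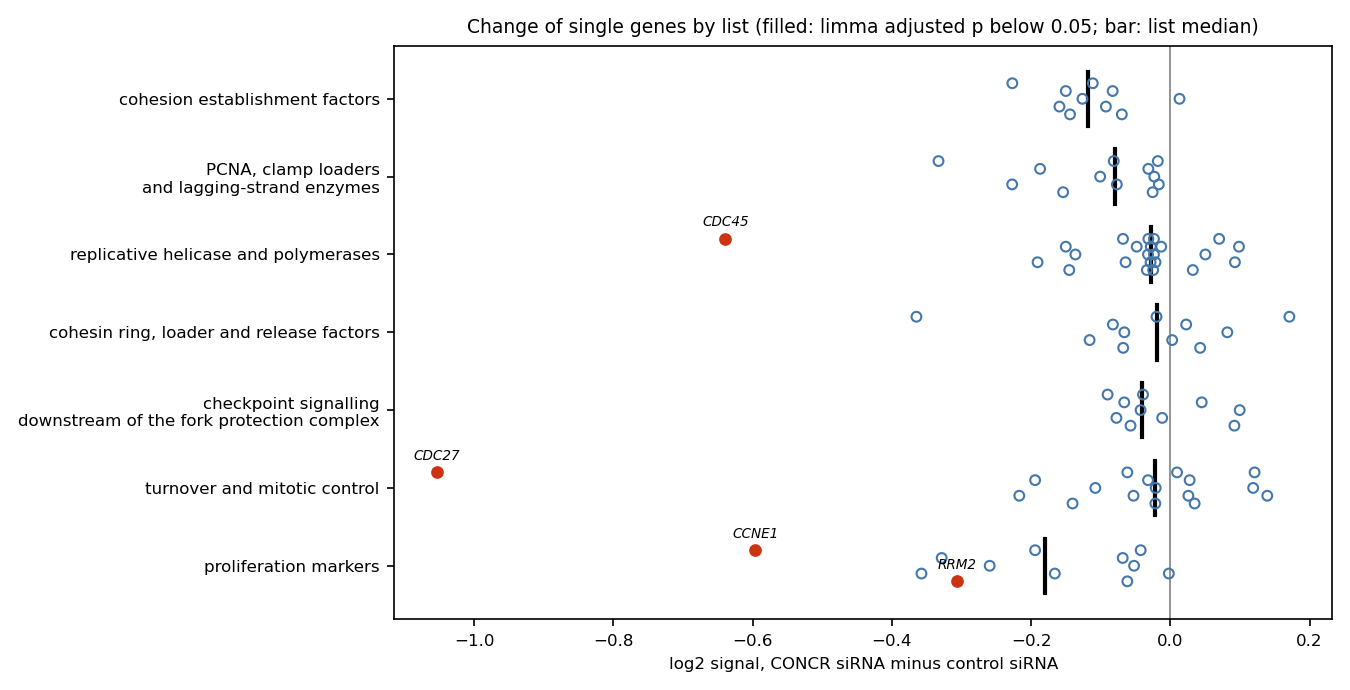
Log2 difference between CONCR siRNA and control siRNA for each measured gene (circles) of the 10 factors and of 6 lists of related genes, with the list median as a bar; filled circles passed the limma test and are named. The 10 factors have a median of -0.12 and no filled circle, and the proliferation markers have a median of -0.18 and 2 filled circles.

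The genes whose values were most like those of TIMELESS and ESCO2 were taken as the 5 with the smallest root mean square difference over the 6 centred log2 signals, among 15487 other genes. For TIMELESS these were TSKU, PTCH1, CPNE2, MAD2L1 and PLPP3, at 0.017 to 0.023 log2 units, where the median over all genes was 0.141. The differences of these 5 between the groups ran from -0.20 to -0.25, and none passed (limma adjusted p from 0.10 to 0.17). For ESCO2 they were CERS2, TMX4, QRICH1, EBF1 and RPS23, at 0.0092 to 0.013, where the median was 0.111. Their differences ran from -0.13 to -0.17 (limma adjusted p from 0.18 to 0.32). Both sets were picked for closeness over the same 6 signals. Differences near those of TIMELESS and ESCO2 thus follow from the choice and are no separate result.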

How the data were processed

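The deposited table holds log2 signals from 6 arrays, made by the authors with RMA (background correction, quantile normalization, median polish) in Affymetrix Power Tools, per the submitters' processing notes. Its version and genome build are not given in the sources used here. Arrays have no read depth, and their number limits precision. Samples were grouped by title. Of 67528 transcript clusters, 32540 with a log2 signal above 4 on at least 3 arrays were tested with limma 3.58.1 in R 4.3.3 (lmFit, eBayes without trend, two-sided), adjusted over all of them by Benjamini-Hochberg with a threshold of 0.05. Symbols came from the platform annotation, updated to RefSeq GRCh38.p14. Exact permutation tests over arrays were two-sided. The fit was tested on simulated data.

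The 10 genes and the related lists were chosen with earlier results of these data known. All 10 genes are named, with the 3 members of each related list that had the smallest p. Other list genes were chosen after their values were seen. These are the small RFC subunits, the MCM range, SMC3, PDS5A, PDS5B, CHEK1, FZR1, COL1A1, CDH5 and the remaining proliferation markers. RAD21, PRIM2 and ATRIP had no tested cluster of a single symbol. Promoter windows were read for 7 of the 10 genes. ESCO1 had no window, and ESCO2 and DSCC1 lie on a chromosome whose windows were left out. Alternatives covered the filter, normalization, variance model, array weights, a replicate block, the threshold, probe set choice and leaving out each array.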

Additional observations from a re-analysis of the deposited data

How the results depend on the processing

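The 16 alternatives gave 148 recomputed values of single factors, none of them from the looser threshold, which changed only the counts. Of these, 145 kept their sign and stayed short of the threshold, 2 kept their sign and passed it, and 1 changed sign. TIMELESS was the factor that passed, with limma adjusted p = 0.020 with the filter raised to a log2 signal of 6, which leaves 8 of the 10 factors, and 0.036 with an intensity trend and robust estimation. Its adjusted p over all alternatives ran from 0.020 to 0.38. The count of factors past the threshold was 1 in these 2 settings and at an adjusted p of 0.1, and 0 in the others. CHTF18 was the factor that changed sign, and ran from -0.020 (control siRNA replicate 2 left out) to 0.057 (control siRNA replicate 1 left out) without each array in turn. The number of clusters called in the whole table, 613, was 238 with no filter, 1102 with the strict filter, 965 with trend and robust estimation, 169 with an unmoderated statistic, 1074 at an adjusted p of 0.1, and 129 to 411 without each array in turn. The median of the 10 factors ran from -0.130 to -0.083 without each array. Removing single arrays moved ESCO1 between -0.22 and -0.06 (the controls left out were replicates 1 and 2), TIPIN between -0.12 and -0.03, and CLSPN between -0.21 and -0.09. The cause was not tested. With the replicate number as a block 51 clusters and none of the factors were called. Deviations of arrays with the same number correlated at -0.27, -0.16 and -0.08, and no array correlated best with its own number. Pairing by number was thus not seen in these values. They cannot tell whether samples shared a culture or a day.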
